A study of Mus musculus with 11 samples.

Results

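The genes described here are the D cyclins (Ccnd1, Ccnd2 and Ccnd3) and the CDK inhibitors of the Cip/Kip family (Cdkn1a, Cdkn1b and Cdkn1c) and the INK4 family (Cdkn2a, Cdkn2b, Cdkn2c and Cdkn2d). They were chosen by gene symbol, and make up 10 of 48709 mouse genes in the count table. Bulk RNA-seq was done on the aortic arch of mouse pups, 11 days after birth. The Het group held 6 mice with 1 Tgfbr2 allele carrying the G357W substitution. This allele models type II Loeys-Dietz syndrome, an inherited connective tissue disorder with aortic aneurysms. The WT group held 5 littermates with both Tgfbr2 alleles wild type. No treatment was given to either group, each library was taken as 1 animal, and no driver or tissue restriction of the mutant allele is named in the labels.

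D cyclins bind the kinases Cdk4 and Cdk6, and the complex phosphorylates the retinoblastoma protein, which releases E2F transcription factors and lets a cell pass from G1 into DNA synthesis. INK4 proteins bind Cdk4 and Cdk6 and keep the D cyclins off, while Cip/Kip proteins bind the assembled cyclin and kinase. In epithelial cells TGF-beta, whose type II receptor Tgfbr2 encodes, is known to arrest growth through Cdkn2b and Cdkn1a, and Cdkn1b is a textbook brake on the growth of vascular smooth muscle.

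Total counts were 13113467 to 19327935 per library. The limit of detection was set at 3 counts, an upper bound on the expected count of a gene for which none was seen. It equals 0.154 to 0.231 CPM. CPM here are counts scaled to library size with TMM factors. Smooth muscle markers summed to 30473 to 41502 CPM in Het and 33606 to 38122 CPM in WT, and markers of endothelium to 378 to 636 CPM in Het and 411 to 543 CPM in WT; the labels give VSMC and EC as cell types. Fibroblast markers summed to 13864 to 19699 CPM in Het and 12589 to 18321 CPM in WT. Much of it was Col1a1 and Col1a2 (means of 7247 and 6126 CPM in Het). By edgeR's quasi-likelihood test, 2 of 8 fibroblast markers had an adjusted p under 0.05, against 5.03% of all tested genes. Both were lower in Het: Mfap5 (log2 fold change -0.70, adjusted p = 0.000631) and Pi16 (-0.62, adjusted p = 0.00194). Of 8 smooth muscle markers Cnn1 was lower (-0.51, adjusted p = 0.0346), and of 8 endothelial markers 0 passed. Of 6 skeletal muscle markers, Tnnt3 made up most of the sum, at 5.74 to 12.7 CPM in Het and 14.3 to 37.3 CPM in WT, while Acta1 averaged 1.22 CPM in Het and 0.823 CPM in WT. Erythroid markers summed to 297 to 697 CPM in Het and 527 to 1199 CPM in WT. The part of any of these markers in the results was not tested. Xist marked Het 1, Het 2 and all 5 WT libraries (58.4 to 78.6 CPM), while Het 3 to 6 had at most 0.735 CPM of Xist and 86.4 to 110.5 CPM of the Y-linked gene Ddx3y. Since no WT library was of the second kind, sex and genotype cannot be fully told apart; the labels give no sex. WT 1 and WT 2 stood apart on the first principal component (scores of -49.7 and -47.1, against -16.4 to -2.15 in the other WT libraries and 14.7 to 29.1 in Het; 24.1% of the variance).

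The sequence before the genes of the INK4 locus is shown because these neighbours, both inhibitors of Cdk4 and Cdk6, had 2 counts over all libraries (Cdkn2a) and 282 in Het and 219 in WT (Cdkn2b). Cdkn2a and Cdkn2b lie side by side on the minus strand of chromosome 4 (GRCm38, 89274471 to 89294653 and 89306299 to 89311039), and Cdkn2a has separate start sites for its transcripts. The 250 bases before each start are printed from RefSeq's GRCm38.p6 windows, 5' to 3', with every GC box in capitals (GGGCGG on either strand, the core of a site bound by Sp1-family factors). The windows lie at chr4:89294620-89294869 and chr4:89282193-89282442 for Cdkn2a and at chr4:89311033-89311282 for Cdkn2b, all on the minus strand.
Cdkn2a, outer start: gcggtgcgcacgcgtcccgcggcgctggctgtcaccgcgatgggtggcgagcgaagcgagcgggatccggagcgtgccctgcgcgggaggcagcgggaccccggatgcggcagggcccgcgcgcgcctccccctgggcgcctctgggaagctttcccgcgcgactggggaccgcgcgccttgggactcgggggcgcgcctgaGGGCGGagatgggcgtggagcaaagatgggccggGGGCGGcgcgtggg
Cdkn2a, inner start: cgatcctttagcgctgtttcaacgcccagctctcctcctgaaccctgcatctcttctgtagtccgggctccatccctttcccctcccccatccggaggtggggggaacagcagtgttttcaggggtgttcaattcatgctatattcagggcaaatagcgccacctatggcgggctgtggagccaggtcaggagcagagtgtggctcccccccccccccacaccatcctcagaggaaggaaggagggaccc
Cdkn2b: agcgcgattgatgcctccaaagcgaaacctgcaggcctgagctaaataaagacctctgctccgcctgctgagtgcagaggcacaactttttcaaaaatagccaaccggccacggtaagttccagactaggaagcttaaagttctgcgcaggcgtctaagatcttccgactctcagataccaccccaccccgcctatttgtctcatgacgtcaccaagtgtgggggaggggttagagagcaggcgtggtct

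The outer Cdkn2a window had 78.4% G and C with 40 CpG pairs and 2 GC boxes, the inner one 60.0% with 7 CpG pairs and 0 GC boxes, and the Cdkn2b window 53.6% with 12 CpG pairs and 0 GC boxes. Over 32817 such windows of all genes, the median was 52.4% with 6 CpG pairs, and 32.7% held a GC box. RefSeq windows matched 7 of the 10 members. The letters CAGAC, a Smad box read on either strand, occurred once in the Cdkn2b window and in neither Cdkn2a window, and 42.2% of all windows held it. The E2F letters TTTCGCGC and TTTGGCGC occurred in none of the members' windows and in 0.256% and 0.417% of all windows. These are matches of letters only.

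**Figure D1:**
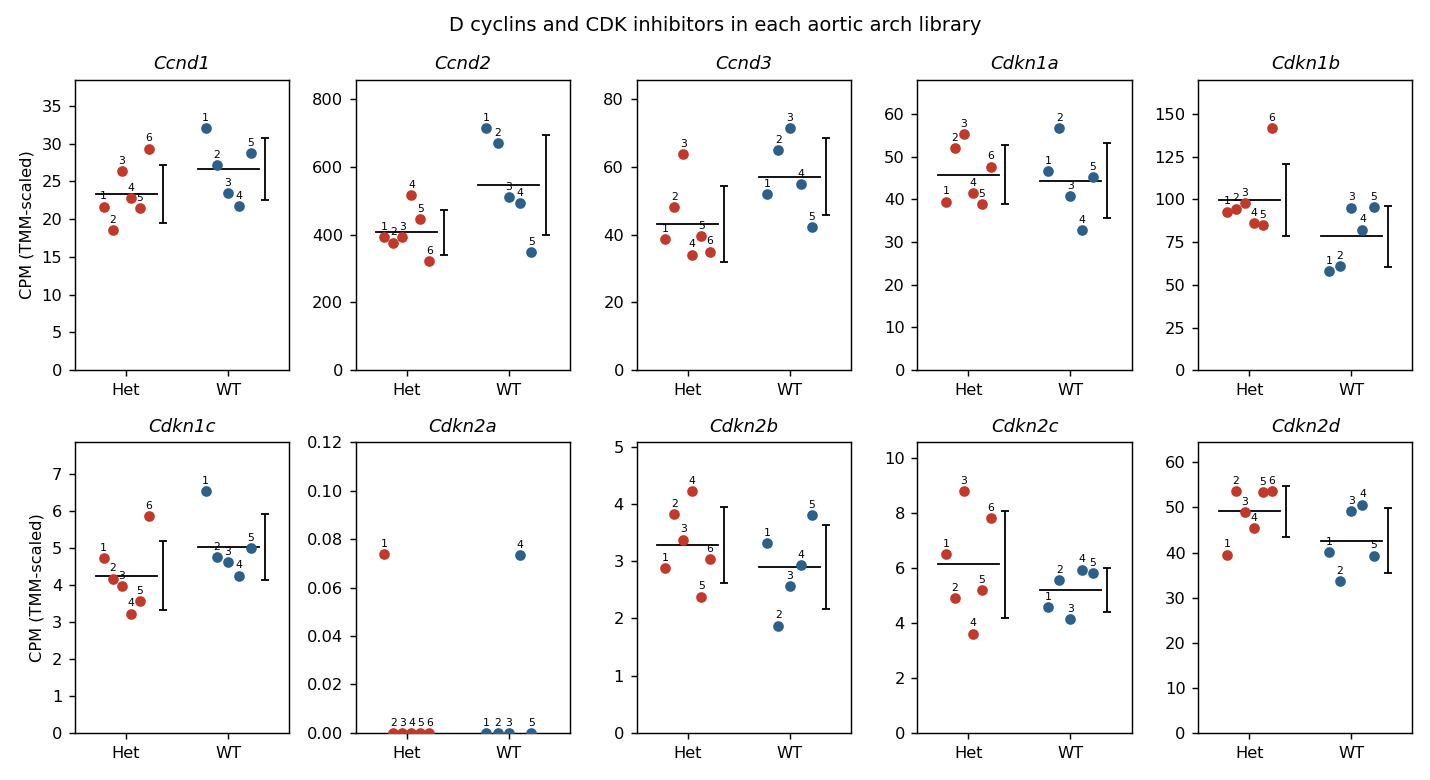
CPM (TMM-scaled, linear axis from 0) of each of the 10 genes in each library, Het left of WT, with the replicate number above each point; the line is the group mean and the bar beside it 1 SD (n = 6 Het and 5 WT; none drawn for Cdkn2a, with 2 counts in all). The groups overlap in every panel.

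None of the members was called different in Het. Of the 9 that passed the filter on low counts, 0 had an adjusted p under 0.05 by edgeR's quasi-likelihood test, against 742 of 14757 tested genes, or 5.03% (2.65% higher in Het and 2.38% lower in Het). At an unadjusted p under 0.05 there were 3 members, Ccnd2, Ccnd3 and Cdkn1b, against 19.4% of all tested genes. DESeq2 and limma voom also called 0 members, against 1295 and 778 of all tested genes. The Het and WT libraries overlapped for each of the 9 genes; they did not overlap for 4.61% of all tested genes. The median log2 fold change of the 9 was 0.04, with 5 positive and 4 negative, against -0.005 for all tested genes.

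**Figure D2:**
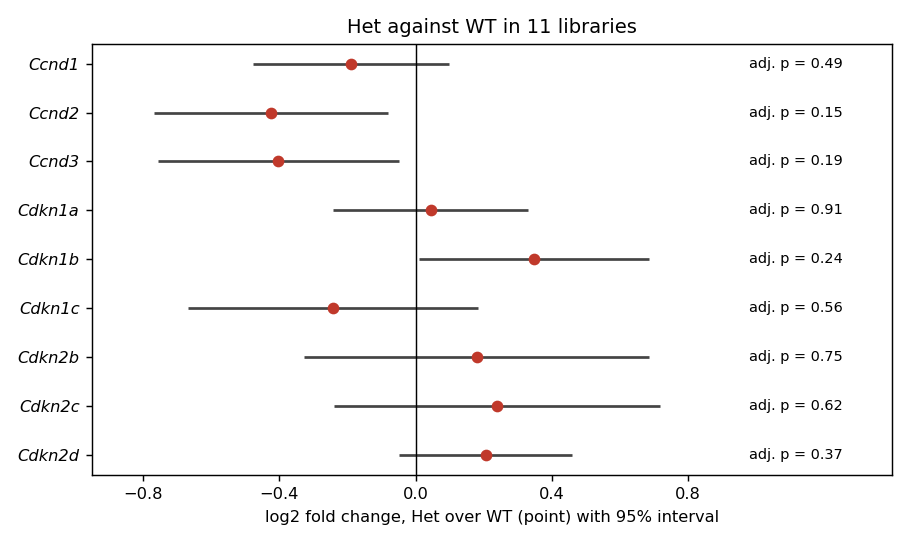
Log2 fold change of Het over WT for the 9 tested members (points) with 95% intervals from edgeR's quasi-likelihood fit in 11 libraries, and the adjusted p at the right. The 3 D cyclins lie left of 0, the 3 tested INK4 genes right of it, and the intervals of Ccnd2, Ccnd3 and Cdkn1b leave out 0 before adjustment over all genes.

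Ccnd2, the D cyclin with the most RNA in these arches (ENSMUSG00000000184, chromosome 6, 127125162 to 127152193, minus strand of GRCm38), had 392.3, 377, 393, 517, 446 and 321 CPM in Het 1 to 6, and 715, 670.1, 511, 493.1 and 349 CPM in WT 1 to 5. WT 1 and WT 2 were above every Het library, Het 6 was below every WT library, and WT 3 to 5 lay within the Het range. Ccnd2 averaged 408 ± 66.6 CPM in Het (SD, n = 6) and 547 ± 147 CPM in WT (SD, n = 5), a log2 fold change of -0.43 ± 0.16 (SE, adjusted p = 0.152), or 0.745-fold with a 95% interval of 0.587 to 0.946 before adjustment. Leaving out WT 5 gave -0.55 with an adjusted p of 0.0270, a call. Without WT 1 and WT 2 the log2 fold change was -0.15 (adjusted p = 0.685). WT 5, the WT library with the least Ccnd2, had the highest summed adipocyte markers of all 11 libraries, 2566 CPM against 276 to 1916 CPM in Het and 708 to 908 CPM in WT 1 to 4; their part in the result was not tested.

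Ccnd3 (ENSMUSG00000034165, chromosome 17, 47505051 to 47599691, plus strand), the D cyclin best known from lymphocytes, had 38.7, 48.1, 63.8, 34.2, 39.7 and 35.0 CPM in Het 1 to 6, and 52.0, 64.9, 71.5, 54.9 and 42.2 CPM in WT 1 to 5. Het 1, 4, 5 and 6 were below every WT library, while Het 2 and Het 3 lay among them. The means were 43.2 ± 11.2 CPM in Het (SD, n = 6) and 57.1 ± 11.4 CPM in WT (SD, n = 5), with a log2 fold change of -0.40 ± 0.17 (SE, adjusted p = 0.190). Leaving out Het 3 gave -0.55 with an adjusted p of 0.0393, a call. Het 3 also had the highest summed T cell and thymocyte markers, 38.2 CPM, followed by Het 6 with 25.5 CPM; the other Het libraries had 2.33 to 8.87 CPM and WT 2.81 to 12.6 CPM. Of those 9 markers, 5 passed the filter and 0 were called, and Cd3e was at 0 in 3 Het and all 5 WT libraries. The part of these cells was not tested, and in bulk tissue fewer cells of a type and less RNA per cell cannot be told apart. Without both Het 3 and Het 6, Ccnd3 had -0.51 (adjusted p = 0.106).

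Ccnd1 (ENSMUSG00000070348, chromosome 7, 144929931 to 144939925, minus strand), the D cyclin that mitogens induce in many cells, ranged from 18.6 to 29.3 CPM in Het, with a median of 22.2 CPM, and from 21.7 to 32.0 CPM in WT, with a median of 27.2 CPM. Het 1, 2 and 5 were below every WT library and WT 1 was above every Het library. Its log2 fold change was -0.19 ± 0.14 (SE, adjusted p = 0.488), or 0.877-fold with an interval of 0.719 to 1.07. Of its exon bases, 1100 are shared with LTO1 on the other strand. The libraries do not mark strand, so reads there cannot be assigned to either gene. Ccnd2, Ccnd3, Cdkn1a and Cdkn1c share at least 273 exon bases with a neighbour on the other strand.

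Among the Cip/Kip inhibitors, Cdkn1b, which encodes p27 (ENSMUSG00000003031, chromosome 6, 134920401 to 134925513, plus strand), had 92.9, 94.6, 97.8, 86.0, 85.1 and 141.7 CPM in Het 1 to 6, and 57.9, 61.2, 95.2, 82.3 and 95.3 CPM in WT 1 to 5. WT 1, WT 2 and WT 4 were below every Het library, Het 3 and Het 6 were above every WT library, and WT 3 and WT 5 lay among the Het values. The means were 99.7 ± 21.2 CPM in Het (SD, n = 6) and 78.4 ± 18.0 CPM in WT (SD, n = 5), with a log2 fold change of 0.35 ± 0.16 (SE, adjusted p = 0.243). WT 1 and WT 2, lowest in Cdkn1b, were the libraries highest in Ccnd2. Without them Cdkn1b had 0.13 (adjusted p = 0.719), and without Het 6 it had 0.22 (adjusted p = 0.450).

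Cdkn1a, which encodes p21, the p53-induced inhibitor (ENSMUSG00000023067, chromosome 17, 29090976 to 29100727, plus strand), lay at 39.0 to 55.3 CPM in Het (median 44.6) and 32.8 to 56.7 CPM in WT (median 45.2). The WT libraries held both the highest and the lowest value. Its log2 fold change was 0.04 ± 0.14 (SE, adjusted p = 0.910), and the 95% interval of 0.845-fold to 1.26-fold leaves room for changes within those limits. Cdkn1c, the imprinted inhibitor p57 (ENSMUSG00000037664, chromosome 7, 143458339 to 143461050, minus strand), lay at 3.23 to 5.87 CPM in Het (median 4.07) and 4.26 to 6.55 CPM in WT (median 4.76), from 42 to 87 counts per Het library and 58 to 99 per WT library. Het 2 to 5 were below every WT library, and Het 6 was second only to WT 1. Its log2 fold change was -0.24 ± 0.20 (SE, adjusted p = 0.560).

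Among the INK4 inhibitors, Cdkn2d, which encodes p19 (ENSMUSG00000096472, chromosome 9, 21288410 to 21291407, minus strand), was the most abundant, with 39.5, 53.5, 49.0, 45.5, 53.4 and 53.7 CPM in Het 1 to 6, and 40.1, 33.6, 49.2, 50.6 and 39.3 CPM in WT 1 to 5. Het 2, 5 and 6 were above every WT library, while WT 2 and WT 5 were below every Het library. Its log2 fold change was 0.21 ± 0.12 (SE, adjusted p = 0.372), or 1.15-fold with an interval of 0.967 to 1.37. Cdkn2c, which encodes p18 (ENSMUSG00000028551, chromosome 4, 109660876 to 109667189, minus strand), had 6.50, 4.90, 8.82, 3.62, 5.20 and 7.82 CPM in Het 1 to 6 and 4.57, 5.56, 4.16, 5.95 and 5.83 CPM in WT 1 to 5. Het 1, Het 3 and Het 6 were above every WT library and Het 4 was below them all. Its log2 fold change was 0.24 ± 0.23 (SE, adjusted p = 0.624). The highest values were in Het 3 and Het 6, the libraries highest in T cell markers. They are also the Het libraries whose table headers carry a 7, a number the labels do not explain. Without them the log2 fold change was -0.04 (adjusted p = 0.960), and leaving out the highest Het values lowers it in any case. The part of T cells or of the header number was not tested.

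Cdkn2b, which encodes p15 (ENSMUSG00000073802), lay at 2.38 to 4.23 CPM in Het (median 3.21) and 1.88 to 3.81 CPM in WT (median 2.94), from 282 counts over the Het libraries and 219 over the WT libraries. Het 2 and Het 4 were above every WT library and WT 2 was below every Het library. Its log2 fold change was 0.18 ± 0.24 (SE, adjusted p = 0.747), with an interval of 0.797-fold to 1.61-fold. Cdkn2a (ENSMUSG00000044303), whose transcripts encode p16 and Arf, had 1 count in Het 1, 1 count in WT 4 and 0 counts in the other 9 libraries. It did not pass the filter, was not tested, and was at or under the limit of detection in every library.

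Per kilobase of the longest annotated transcript, the order of levels over the 11 libraries was Ccnd2 (74.4 ± 20.1 CPM per kb, SD, n = 11), Cdkn2d (32.4 ± 4.90), Cdkn1a (21.7 ± 3.56), Cdkn1b (19.8 ± 4.81), Ccnd3 (12.8 ± 3.35), Ccnd1 (6.64 ± 1.11), Cdkn1c (2.43 ± 0.506), Cdkn2c (2.32 ± 0.625), Cdkn2b (2.24 ± 0.498) and Cdkn2a (0.015). Ccnd2 was above Cdkn2d in 11 of 11 libraries. Cdkn1a and Cdkn1b were not separated beyond their spread (Cdkn1a higher in 7 of 11), nor were Cdkn1c, Cdkn2c and Cdkn2b (6 of 11 for each neighbouring pair). With the union of exons as length, Cdkn1b (19.8 CPM per kb) stood above Cdkn1a (12.7 CPM per kb), and Ccnd3 (5.64) close to Ccnd1 (5.28).

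Most of each family's level came from 1 gene or a pair. Ccnd2 made up 78.4 ± 4.38% of the summed D cyclin level per kb in Het (SD, n = 6) and 79.2 ± 3.62% in WT (SD, n = 5). Cdkn2d made up 87.5 ± 2.13% of the INK4 level in Het and 87.5 ± 2.34% in WT. Of the Cip/Kip level, Cdkn1b held 47.3 ± 4.24% in Het and 41.8 ± 9.07% in WT, and Cdkn1a 47.9 ± 4.75% in Het and 51.7 ± 8.46% in WT. These shares use the longest transcript. With the union of exons as length, Cdkn1b held 59.1% in Het and 53.2% in WT, and Cdkn1a 35.2% and 39.0%. Which of the pair leads thus depends on the length used. By longest transcript, the summed D cyclin level was 67.7 to 96.6 CPM per kb in Het and 73.7 to 135.0 CPM per kb in WT. WT 1, WT 2, WT 3 and WT 4 were above every Het library and WT 5 was below all but Het 6. WT 4 (97.9 CPM per kb) was barely above Het 4 (96.6 CPM per kb), and their order depends on the length used.

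**Figure D3:**
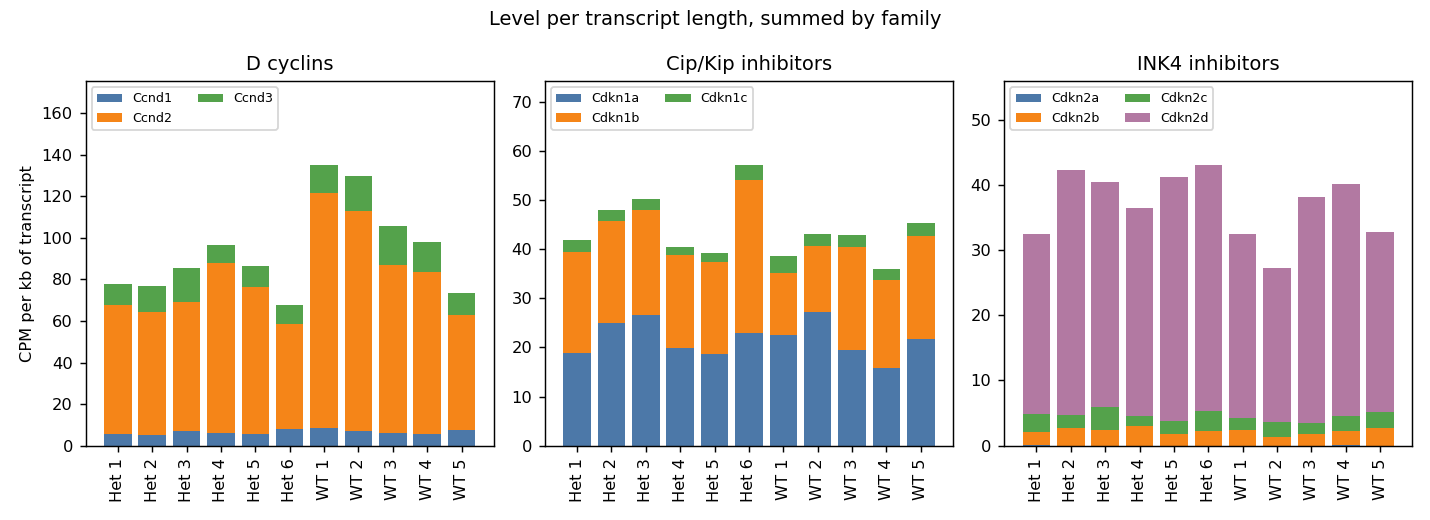
CPM per kb of the longest transcript in each library, Het 1 to 6 left of WT 1 to 5, stacked by gene within each family; the axes start at 0 and differ between panels. Ccnd2 makes up most of the D cyclin level and Cdkn2d most of the INK4 level in every library, and Cdkn2a is too low to see.

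Other genes of the pathway were taken from lists set by their role, but with earlier results of these data known. Their counts stand beside 5.03% of all tested genes called (2.65% higher in Het), which is no test of the lists. Of 12 tested cyclin-dependent kinases and E, A and B cyclins, 5 rose and 0 fell, with a median log2 fold change of 0.33. Ccnb1, the cyclin of mitotic entry, averaged 22.4 ± 5.59 CPM in Het (SD, n = 6) and 10.9 ± 4.73 CPM in WT (SD, n = 5), a log2 fold change of 1.04 ± 0.25 (SE, adjusted p = 0.0261), and Ccne2, a partner of Cdk2 at the start of DNA synthesis, rose by 0.91 ± 0.22 (adjusted p = 0.0285). The kinases that D cyclins bind, named for that role, were not called: Cdk4 was at 239 ± 11.7 CPM in Het and 269 ± 20.2 CPM in WT (-0.17 ± 0.07, adjusted p = 0.208), and Cdk6 at 344 ± 39.6 CPM in Het and 263 ± 67.0 CPM in WT (0.39 ± 0.14, adjusted p = 0.141). The count of 5 became 0 without Het 2, Het 4, Het 5, Het 6, WT 2 or WT 3 and 1 without WT 1 or WT 5.

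Of 21 E2F target and proliferation genes, 8 rose and 0 fell, all 21 had a positive log2 fold change, and the median was 0.51. The summed level was 619 to 814 CPM in Het and 431 to 685 CPM in WT, where WT 4, at 685 CPM, lay within the Het range and the other WT libraries reached at most 474 CPM. Mki67, a marker of dividing cells, had a log2 fold change of 1.48 ± 0.25 (SE, adjusted p = 0.00339) and was above every WT library in 5 of 6 Het libraries. Mcm5, a subunit of the replication helicase, had 0.72 ± 0.15 (adjusted p = 0.00883) and was above every WT library in all 6. The count of 8 became 3 without WT 3, 4 without WT 2 and 5 without Het 2 or Het 4, and 3 without both WT 1 and WT 2. With a sex score as a covariate, and in the Xist-positive libraries alone (2 Het and 5 WT), 0 genes of any of the 8 lists were called. Calls over all tested genes fell under both settings too, to 34 of 15600 in the Xist-positive libraries. The 0 calls are therefore not particular to the lists. Log2 fold changes with the sex score were 1.21 for Mki67, 0.80 for Mcm5, 0.92 for Ccnb1, 1.38 for E2f7, 0.88 for Foxm1, 0.82 for Plk2, 0.67 for Ccne2 and 0.55 for Dtl. In the Xist-positive libraries they were 1.25 for Mki67, 0.81 for Mcm5, 0.98 for Ccnb1, 1.45 for E2f7, 0.90 for Foxm1, 0.75 for Plk2, 0.71 for Ccne2 and 0.54 for Dtl, so the direction was kept for each of these genes.

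Of 13 pocket proteins and E2F factors, 1 rose and 0 fell, a count near the share over all tested genes (5.03%), with a median of -0.11. The gene that rose was E2f7, an E2F that represses its targets (2.92 ± 0.570 CPM in Het and 1.10 ± 0.693 CPM in WT; 1.41 ± 0.36, adjusted p = 0.0342), and E2f8, a repressor of the same kind, had 1.01 ± 0.39 (adjusted p = 0.156). E2f7 was no longer called when any of WT 1, 2, 3, 5 or Het 2, 4, 5, 6 was left out (adjusted p up to 0.0845, without WT 2), and without WT 4 the list had 2 calls, E2f8 among them. Of 13 genes for the turnover of D cyclins and CDK inhibitors, 1 rose and 0 fell, with a median of 0.07. This was Dtl, the substrate receptor of a ubiquitin ligase that marks p21 for destruction during DNA synthesis, at 12.1 ± 1.63 CPM in Het (SD, n = 6) and 6.998 ± 1.21 CPM in WT (SD, n = 5), above every WT library in 6 of 6 Het libraries (0.78 ± 0.16, adjusted p = 0.00864). Cryab, a small heat shock protein that helps a ligase of cyclin D1, had 0.28 ± 0.08 (adjusted p = 0.0556). This list had 3 calls with DESeq2 (2 higher and 1 lower in Het), 3 without WT 5 and 2 without Het 3. Over all tested genes DESeq2 called 1295, against 742 in the main fit.

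The counts of the turnover list and of the next pair of lists, 1 each, were also near that share. Of 18 genes of p53 and its targets, 1 rose and 0 fell, with a median of 0.10: Plk2, a polo-like kinase, rose by 0.90 ± 0.20 (SE, adjusted p = 0.0167), a call lost without WT 2 (adjusted p = 0.0510), and Sesn1, a stress-induced sestrin, had -0.44 ± 0.13 (adjusted p = 0.0539). Sesn1 was called lower with no filter (adjusted p = 0.0463), DESeq2 (0.0207), limma voom (0.0448), limma trend (0.0495 and 0.04998), a number in the table headers as covariate (0.0268), and without WT 5 or Het 1 (0.0466 and 0.0133). Of 15 tested transcription factors upstream of D cyclins and Cip/Kip genes, 1 rose and 0 fell, with a median of 0.21. Foxm1, a driver of mitotic genes, averaged 5.05 ± 0.771 CPM in Het and 2.56 ± 1.01 CPM in WT (0.98 ± 0.24, adjusted p = 0.0276), but was not called when any of WT 1, 2, 3, 5 or Het 2, 5, 6 was left out (adjusted p up to 0.0736, without WT 2). Egr1, an immediate early factor, had 0.82 ± 0.24 (adjusted p = 0.0589), and was called without Het 1 (adjusted p = 0.0133), with no filter (0.0427) and with DESeq2 (0.0154). Of 15 genes listed as regulators of the INK4 locus, mostly Polycomb genes, 0 were called and the median was -0.005. The list also holds Kdm6b, so its members need not act in the same direction. The smallest p were those of Suz12 (0.37 ± 0.15, adjusted p = 0.185) and Cbx8 (-0.30 ± 0.20, adjusted p = 0.453). Of 6 tested imprinted neighbours of Cdkn1c, 0 were called and the median was -0.23; Tssc4 had -0.45 ± 0.14 (adjusted p = 0.0792) and Cd81 -0.30 ± 0.10 (adjusted p = 0.113). Both were called lower without WT 5 (adjusted p = 0.0200 and 0.0423), and Tssc4 also without WT 4 and with DESeq2 (adjusted p = 0.0400 for each).

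**Figure D4:**
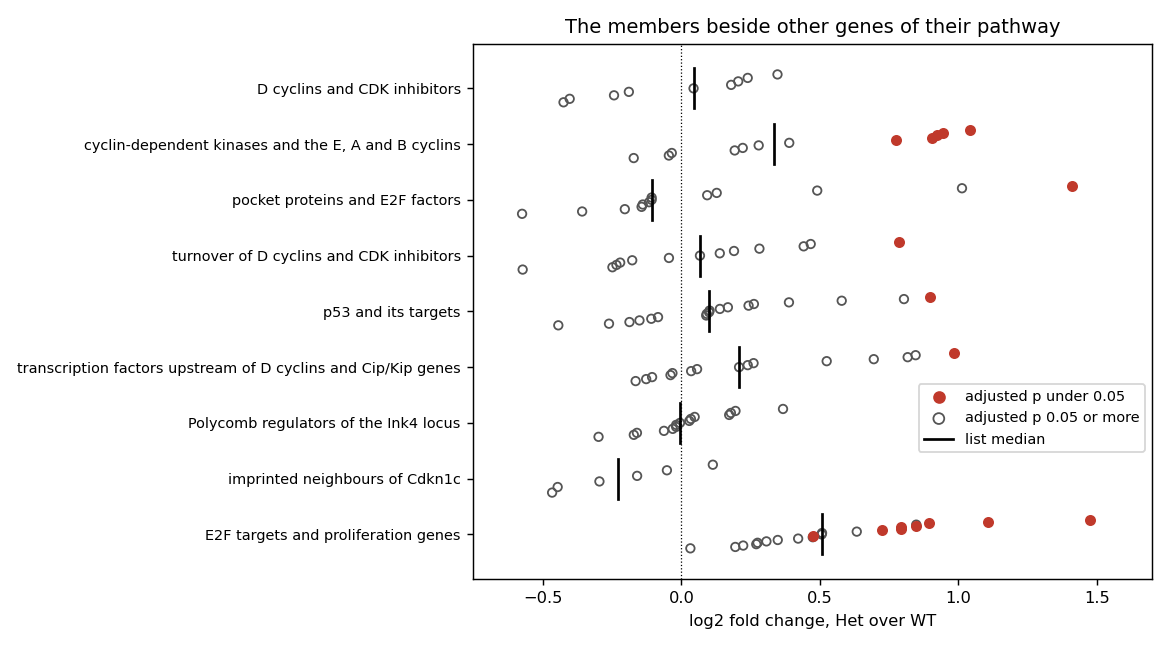
Log2 fold change of Het over WT for the tested D cyclins and CDK inhibitors (top row) and for 8 lists of other pathway genes; filled points have an adjusted p under 0.05 by edgeR and the bar is the list median. The top row has 0 filled points of 9, the cyclin and kinase row 5 of 12 and the E2F target row 8 of 21.

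The direction of the D cyclins and of Cdkn1b did not change over the 26 settings tried on the whole contrast, but the size of the change did. Cdkn1c, Cdkn2b and Cdkn2d also kept their direction in all 26, while Cdkn1a and Cdkn2c did not. Most settings share nearly all libraries, so they are not independent. These settings included the sex score as a covariate and the Xist-positive libraries alone, so the values there lie within the ranges that follow. Ccnd2 ranged from -0.55 to -0.15 on the log2 scale, Ccnd3 from -0.55 to -0.31, Ccnd1 from -0.40 to -0.04 and Cdkn1b from 0.13 to 0.43. The headers of the count table carry a 6 or a 7 whose meaning the labels do not give. Among the libraries with the number 7 (2 Het and 4 WT), the log2 fold changes were -0.64 for Ccnd2, -0.12 for Ccnd3, 0.02 for Ccnd1 and 0.69 for Cdkn1b, so that Ccnd1 turned sign there (27.8 CPM in Het and 27.4 CPM in WT). The number 6 held 4 Het libraries and 1 WT library, WT 3, too few for a test within it. Against that 1 WT library the log2 fold changes were -0.24 for Ccnd2, -0.83 for Ccnd3, -0.15 for Ccnd1 and -0.09 for Cdkn1b. Cdkn1b thus turned sign there (89.6 CPM in Het and 95.2 CPM in WT 3).

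**Figure D5:**
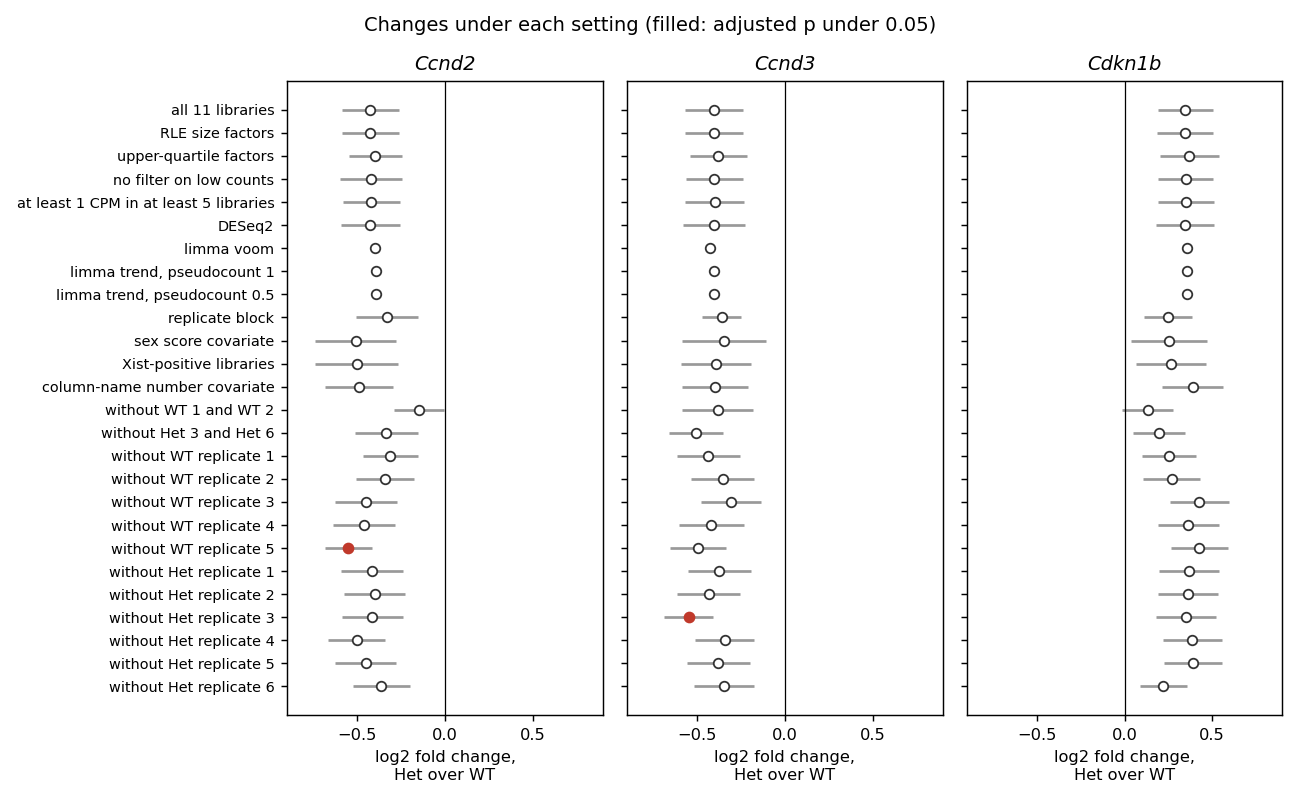
Log2 fold change of Het over WT for Ccnd2, Ccnd3 and Cdkn1b under each of 26 settings, with bars of 1 SE where the fit gave one (none for the 3 limma fits) and filled points for an adjusted p under 0.05. Filled points are Ccnd2 without WT 5 and Ccnd3 without Het 3, and Ccnd2 and Cdkn1b lie nearest 0 without WT 1 and WT 2.

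The genes whose level followed Ccnd2 most closely were Ccdc50, 1600002K03Rik and Cbfa2t2. The root mean square difference of their mean-centred log2 CPM from that of Ccnd2 over the 11 libraries was 0.082, 0.097 and 0.098, against a median of 0.457 over all tested genes. The log2 fold changes of these genes were -0.49, -0.32 and -0.30, and none was called (adjusted p = 0.132, 0.255 and 0.335). Since they were picked for the smallest difference from Ccnd2 in these same libraries, fold changes like that of Ccnd2 follow from the choice.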

How the data were processed

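Per the labels' protocols, total RNA from aortic arches was made into unstranded Nextera XT libraries and sequenced as single reads. GRCm38 and STAR 2.5.2a, with limma, edgeR and DESeq2, stand in the submitters' processing notes, which assign them no roles. The read counter and its annotation were not given in any source used. The deposited raw counts hold 48733 rows, and 24 rows named as SIRV or tg sequences (at most 8.06e-05% of a library) were left out. The deposited TMM-scaled CPM, entered as signal, served only the limma trend alternatives and the member lookup (it lists 9 of the 10, without Cdkn2a). The authors' filtered counts gave no result. Names, coordinates and lengths came from a GENCODE annotation of GRCm38.

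Genes were kept by filterByExpr (minimum count 10, minimum total 15), scaled by TMM (factors 0.979 to 1.03) and tested by edgeR's robust quasi-likelihood test without covariates (edgeR 4.0.16, R 4.3.3), with Benjamini-Hochberg adjustment over 14757 genes and a threshold of 0.05. The SE is the log2 fold change divided by the square root of F, and 95% intervals use the test's degrees of freedom. The members and lists were chosen with earlier results of these data known. Named genes are all members, the 2 smallest p of each list, Cdk4 and Cdk6 (added for their role after their values were seen) and the 3 genes most like the member with the smallest p. Replicate numbers did not pair the samples. Alternatives were other scalings, filters, tests (DESeq2 1.42.0, limma 3.58.1), a block, covariates and left-out libraries. Tests were checked on simulated data. Limits of detection cover counting error only, since reads carried no molecular identifiers.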

Additional observations from a re-analysis of the deposited data

Results flagged for a closer look

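Cdkn1b in Het 6, at 141.7 CPM, lay far from the other 5 Het libraries (85.1 to 97.8 CPM). The summed adipocyte markers of WT 5, 2566 CPM, lay far from the other 4 WT libraries. Each was further from its nearest neighbour than Dixon's 95% critical value allows. These were 2 of 40 groups checked, and chance flags about 1 in 20.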

How the results depend on the processing

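The count of 0 members called was unchanged except without WT 5 or without Het 3, where it was 1, so that leaving out each library in turn gave 0 to 1. The count of all genes called, 742, was 1295 with DESeq2, 329 with the replicate block, 123 with the sex score, 34 in the Xist-positive libraries, 415 with the header number as covariate, 432 when WT 1 and WT 2 were left out, 411 without Het 3 and Het 6, and 458 to 853 with each library left out. The count over the 8 pathway lists, 17, was 0 with the sex score, 0 in the Xist-positive libraries, 9 with the header number as covariate, 4 when WT 1 and WT 2 were left out, 6 without Het 3 and Het 6, and 5 to 22 with each library left out; for these shifts the cause was not tested. Under these sex-related settings the log2 fold changes were nearer their values in all libraries for Mcm5 (0.80 and 0.81, against 0.72) and Foxm1 (0.88 and 0.90, against 0.98) than for Dtl (0.55 and 0.54, against 0.78). By the values given with the E2F targets, E2f7, Ccnb1 and Plk2 also moved less than Dtl, while Mki67 and Ccne2 moved about as far. No SE was taken for these moves, and whether they differ between genes was not tested. The fit without Het 3 and Het 6 was chosen after seeing the data. Same-numbered samples correlated at -0.214 to 0.059, so the replicate block pairs numbers only; with it 0 members were called. No scaling moved the median of all genes by over 0.1. With 39 to 55 counts per Het library and 28 to 51 per WT library, depth limits Cdkn2b most among the tested members.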
